A study of Mus musculus with 8 samples.

Results

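The genes described here move calcium in and out of the cytosol of heart muscle cells, and they were compared between neonatal mouse hearts that lack connexin43 and wildtype neonatal hearts. The list holds 9 genes: Atp2a2, Pln, Slc8a1, Camk2d, Asph, Srl, Ryr2, S100a1 and Calm2. Probes were taken where the probe annotation gives 1 of these symbols and no other. This found 14 probes among 28704 on the array. Of these 12, for 6 genes, were measured on 3 or more arrays per genotype and were tested together with 16296 other probes; the tested probes with a single symbol cover 7603 genes. The 12 probes belong to Atp2a2 (3), Pln (3), Slc8a1 (2), Asph (2), Camk2d (1) and Srl (1). A further Pln probe had no value on any array, the only S100a1 probe had a value on wildtype replicate 2 alone (0.28), and Ryr2 and Calm2 had no probe under their symbol alone and are not analysed here.

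Each of 8 two-colour arrays carried Cy3-labelled cDNA from a pool of 3 hearts. Of these, 4 pools came from wildtype C57BL neonates and 4 from connexin43 null C57BL neonates. The labels used here do not say how the null allele was made or how many days old the neonates were. The Cy5 channel held the same reference on every array, a mixture of adult C57BL tissues of both sexes that itself contained heart. Levels are given as the log2 of heart divided by reference after subtracting each array's median, so 0 is the level of a typical probe and 1 is 2-fold above it. Pooled hearts hide the spread between animals, and in whole hearts fewer cells of a type and less RNA per cell cannot be told apart.

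In a beating heart muscle cell, calcium enters from outside, opens the release channel of the sarcoplasmic reticulum (the internal calcium store) and so triggers contraction. Relaxation follows when the pump SERCA2, encoded by Atp2a2, returns calcium to the store while phospholamban, encoded by Pln, holds that pump back, and when the sodium-calcium exchanger NCX1, encoded by Slc8a1, expels calcium across the surface membrane. Calmodulin-dependent kinase II, whose main heart form is encoded by Camk2d, phosphorylates phospholamban and the release channel. In textbooks the newborn heart is described as relying more on the exchanger, and the adult heart more on the pump.

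Transcript levels are all that these arrays measured, so no site in a promoter was assayed. For orientation the 250 bases before the transcription start are shown for the 3 tested genes that have an entry in the RefSeq promoter table (build GRCm38.p6), which differ in how they read between genotypes: Pln had lower values in null hearts on 3 of 3 probes, Slc8a1 had opposite signs on its 2 probes, and Camk2d had a higher value on its 1 probe. Capitals mark the letters GATAAG, a motif bound by GATA factors, and CCAAT, each searched on both strands. The table had entries for 5 of the 9 genes. The windows are chr10:53337436-53337685 (plus strand) for Pln, chr17:81738388-81738637 (minus strand) for Slc8a1 and chr3:126596701-126596950 (plus strand) for Camk2d.
Pln: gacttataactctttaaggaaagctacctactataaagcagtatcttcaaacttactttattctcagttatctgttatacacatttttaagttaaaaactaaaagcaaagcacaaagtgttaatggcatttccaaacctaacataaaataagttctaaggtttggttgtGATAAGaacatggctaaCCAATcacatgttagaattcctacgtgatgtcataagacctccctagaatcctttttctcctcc
Slc8a1: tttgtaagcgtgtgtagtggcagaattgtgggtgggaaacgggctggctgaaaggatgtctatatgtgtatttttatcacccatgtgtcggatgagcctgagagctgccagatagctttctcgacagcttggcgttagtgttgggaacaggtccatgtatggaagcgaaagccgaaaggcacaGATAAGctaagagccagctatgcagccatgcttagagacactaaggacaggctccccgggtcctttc
Camk2d: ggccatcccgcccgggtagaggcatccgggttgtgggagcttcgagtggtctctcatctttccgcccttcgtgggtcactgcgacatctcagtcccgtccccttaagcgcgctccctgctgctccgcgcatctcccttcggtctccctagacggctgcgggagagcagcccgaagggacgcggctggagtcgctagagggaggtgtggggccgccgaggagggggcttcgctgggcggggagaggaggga

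GATAAG stood once in the Pln window, 75 bases before the start, and once in the Slc8a1 window, 61 bases before it, and 6.55% of 32817 promoter windows of this length hold it on either strand. CCAAT stood once in the Pln window, and 33.8% of windows hold it. The E-box letters CANNTG were found in the Pln window, directly after CCAAT without overlapping it, and in the Slc8a1 window, against 66.2% of windows. TATAAA was found in the Pln window 213 bases before the start, against 12.4% of windows, and the MEF2 motif, held by 0.509% of windows, in none of these 3. None of the 5 motifs searched was found in the Camk2d window. A match is a string of letters and no measured binding.

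The arrays were checked first. The number of spots with a value ran from 12971 on wildtype replicate 1 to 23929 on wildtype replicate 4, and wildtype replicate 1 also ranked the probes least like its fellow arrays (median Spearman correlation 0.576, against at least 0.663 elsewhere). For the calcium cycling probes, the value without it is given where its omission turns the sign or clearly moves the difference. Which dye is the numerator is not stated in the labels; heart was taken as the numerator, as likely, because heart muscle markers had a median above that of markers of other adult tissues on 8 of 8 arrays (0.82 to 1.20 against -2.96 to -1.22). Gja1, the deleted gene, read 1.04, 1.31, 0.99 and 0.79 on the wildtype arrays and -0.29, 0.25, 0.12 and 0.22 on the null arrays, with no overlap (difference -0.95, SE 0.15, exact two-sided permutation p = 0.0286, the smallest that 70 assignments allow). Its limma p adjusted over 16308 probes was 0.417, and where its probe lies relative to the deleted part is not known here. With limma 0 probes passed an adjusted p of 0.05 (0%), while 1300 (7.97%) had an unadjusted p under 0.05, 380 higher and 920 lower in null hearts. No calcium cycling probe therefore passed, and the differences below are values with their errors, not calls.

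**Figure D1:**
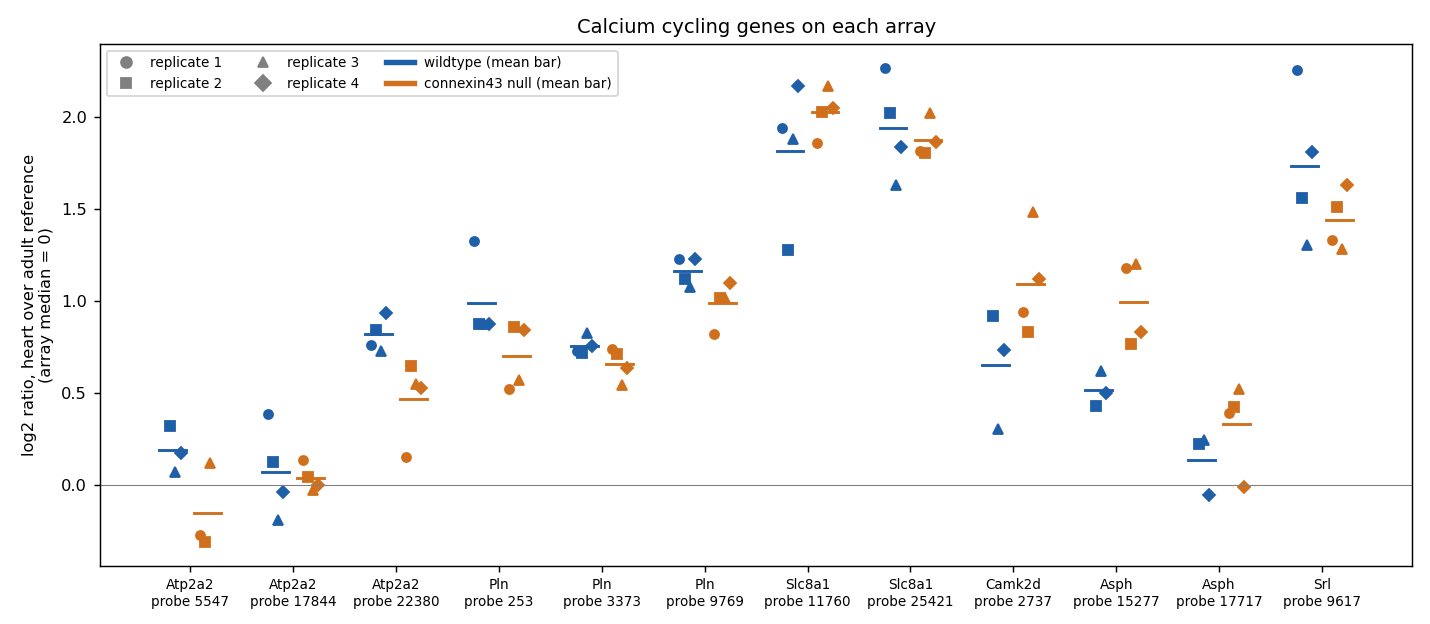
Log2 ratio of heart over adult reference (vertical axis, array median at 0) for the 12 tested probes of the calcium cycling genes; each symbol is 1 array, its shape gives the replicate number, and bars are group means. Null arrays of Atp2a2 probe 22380 and Pln probe 253 lie below all wildtype arrays, those of Asph probe 15277 lie above them, and the groups of the other 9 probes overlap.

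Atp2a2 encodes SERCA2, the pump that refills the store. Its probe 22380 read 0.76, 0.85, 0.73 and 0.94 on wildtype replicates 1 to 4 and 0.15, 0.65, 0.55 and 0.53 on null replicates 1 to 4. All null arrays were below all wildtype arrays, and null replicate 1 was the lowest. The means were 0.82 ± 0.09 and 0.47 ± 0.22 (SD, n = 4 each), a difference of -0.35 (SE 0.13, 95% interval -0.63 to -0.06) or 1.27-fold lower, with limma adjusted p = 0.596. Probe 5547 had no value on wildtype replicate 1 and null replicate 4 and was fitted without them; it read 0.32, 0.07 and 0.18 in wildtype and -0.27, -0.31 and 0.12 in null hearts. Its groups overlapped through null replicate 3, and the difference was -0.34 (SE 0.16, adjusted p = 0.628).

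The remaining Atp2a2 probe, 17844, did not show this. It read 0.39, 0.12, -0.19 and -0.04 in wildtype and 0.14, 0.04, -0.03 and -0.00 in null hearts, so that the null values lay inside the wildtype range. The difference was -0.03 (SE 0.13, 95% interval -0.33 to 0.26), and 0.07 without wildtype replicate 1, its highest value. It turned to 0.0045 with quantile normalization and to 0.01 with array weights. Which transcript form of the pump each probe reads is not known here. Averaged over the 3 probes, Atp2a2 had 0.37 ± 0.12 in wildtype and 0.13 ± 0.09 in null hearts (SD, n = 4 each), a difference of -0.24 (SE 0.11, adjusted p = 0.594), with wildtype replicate 3 (0.205) just below null replicate 3 (0.214).

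Pln encodes phospholamban, the inhibitor of that pump. Its probe 253 read 1.33, 0.88, 0.88 and 0.88 in wildtype and 0.52, 0.86, 0.57 and 0.84 in null hearts. The groups did not overlap, but null replicates 2 and 4 were close below the wildtype arrays, and wildtype replicate 1 stood apart. The difference was -0.29 (SE 0.14, 95% interval -0.60 to 0.02, adjusted p = 0.633), and -0.18 without wildtype replicate 1. Array weights, which gave that array the least weight, brought it to -0.11.

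Probe 9769 of Pln had the highest level of its probes, with 1.23, 1.12, 1.07 and 1.23 in wildtype and 0.82, 1.01, 1.02 and 1.10 in null hearts. Null replicate 4 overlapped the wildtype range, and the difference was -0.17 (SE 0.11, 95% interval -0.41 to 0.07). Probe 3373 read 0.73, 0.72, 0.83 and 0.76 in wildtype and 0.74, 0.71, 0.55 and 0.63 in null hearts, a difference of -0.10 (SE 0.10, 95% interval -0.33 to 0.13), or -0.06 without null replicate 3. The sign was thus the same on 3 of 3 probes, and these 3 share the arrays and are not independent replicates. Averaged over its probes Pln had 0.97 ± 0.09 in wildtype and 0.78 ± 0.09 in null hearts (SD, n = 4 each). The array values of this average did not overlap (0.91 to 1.09 against 0.69 to 0.86), with a difference of -0.19 (SE 0.10, adjusted p = 0.620).

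Srl encodes sarcalumenin, a calcium-binding protein inside the sarcoplasmic reticulum. Its probe read 2.26, 1.56, 1.30 and 1.81 in wildtype and 1.33, 1.51, 1.28 and 1.63 in null hearts. All null arrays lay below wildtype replicates 1 and 4, while wildtype replicate 3 was as low as the null arrays. The difference was -0.29 (SE 0.19, 95% interval -0.70 to 0.12, adjusted p = 0.700). Without wildtype replicate 1, the highest array, it was -0.12, and with array weights -0.10.

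Slc8a1 encodes the sodium-calcium exchanger of the surface membrane. Its probe 11760 read 1.94, 1.28, 1.88 and 2.17 in wildtype and 1.86, 2.03, 2.17 and 2.05 in null hearts, and wildtype replicate 2 stood well below the other 7 arrays. The difference was 0.21 (SE 0.18, 95% interval -0.18 to 0.59), but 0.03 without wildtype replicate 2, 0.33 without wildtype replicate 4, 0.02 with quantile normalization and 0.09 with equal spread. Probe 25421 read 2.27, 2.02, 1.63 and 1.84 in wildtype and 1.82, 1.80, 2.02 and 1.86 in null hearts, a difference of -0.06 (SE 0.14, 95% interval -0.38 to 0.25). That sign turned without wildtype replicate 1 (0.05). The intervals include changes of either sign, and a difference of the size seen for Atp2a2 probe 22380, in the lower direction, lies inside that of probe 25421 but outside that of probe 11760.

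Camk2d encodes the delta form of calmodulin-dependent kinase II. Its probe had no value on wildtype replicate 1 and was fitted on 7 arrays, which read 0.92, 0.31 and 0.73 in wildtype and 0.94, 0.83, 1.48 and 1.12 in null hearts. The groups overlapped, since null replicate 2 lay below wildtype replicate 2. The difference was 0.44 (SE 0.19, 95% interval 0.02 to 0.87, 1.36-fold higher, adjusted p = 0.610), and 0.27 without wildtype replicate 3, the lowest array.

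Asph encodes aspartate beta-hydroxylase and, from other transcript forms, junctin and junctate, proteins of the reticulum membrane that bind calcium or anchor the release channel. Its probe 15277, fitted without wildtype replicate 1, read 0.43, 0.62 and 0.50 in wildtype and 1.18, 0.77, 1.20 and 0.83 in null hearts. All null arrays were above all wildtype arrays. The difference was 0.48 (SE 0.15, 95% interval 0.15 to 0.80, 1.39-fold higher, adjusted p = 0.583), which ranked 221 of 16308 by p-value, the best place of any probe described here apart from Gja1. Leaving out each array in turn kept it between 0.41 and 0.55. Probe 17717 read 0.22, 0.24 and -0.06 in wildtype and 0.39, 0.43, 0.52 and -0.01 in null hearts; replicate 4 was the lowest of each genotype. Its difference was 0.20 (SE 0.16, 95% interval -0.15 to 0.54), 0.10 without wildtype replicate 4 and 0.31 without null replicate 4. Which of the transcript forms either probe reads is not known here.

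**Figure D2:**
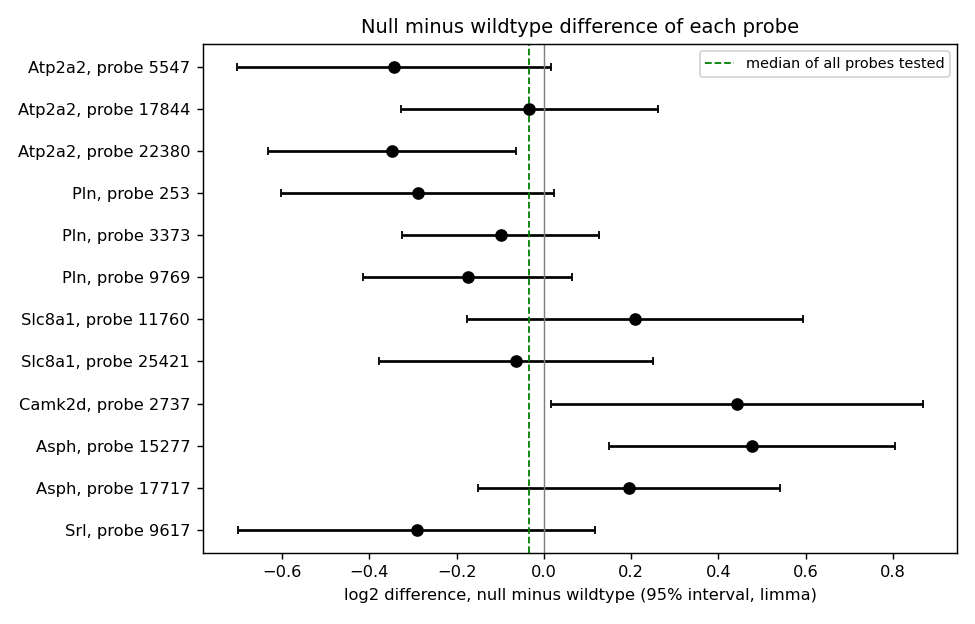
Log2 difference of null minus wildtype hearts (horizontal axis) for each tested probe, with its 95% interval from limma; the dashed line is the median of all 16308 probes tested, -0.03. The intervals of Atp2a2 probe 22380, Camk2d and Asph probe 15277 do not include 0, and none of these passed after adjustment over all probes.

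Set side by side, the 7 probes of Atp2a2, Pln and Srl had differences below 0, the 3 of Camk2d and Asph had differences above 0, and the 2 of Slc8a1 were divided. Of the 12 probes 8 were lower in null hearts, with a median difference of -0.08, against 57.5% of all probes below 0 and a median of -0.03. At an unadjusted p under 0.05, 1 of the 12 was lower (all probes 5.64%) and 2 were higher (all probes 2.33%). All null arrays lay below all wildtype arrays for 2 of the 12 (all probes 5.38%) and above them for 1 (all probes 2.13%). Among all probes with values on 8 arrays, like the former 2, these shares were 3.32% below and 1.7% above, and among those with values on 7 arrays, like the latter, 7.6% below and 2.79% above. With counts this small they are a description of these probes. Without wildtype replicate 1, 6 of the 12 were below 0 and the median was -0.03, and without wildtype replicate 3 the median was -0.14. With the probes of a gene averaged, 3 of 6 genes were below 0. Without centring of the arrays the median of the 12 was -0.24, since the median of all probes then stood at -0.17 and every difference moved down. Pln probe 9769, for example, then had -0.33 and Slc8a1 probe 11760 0.05.

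**Figure D3:**
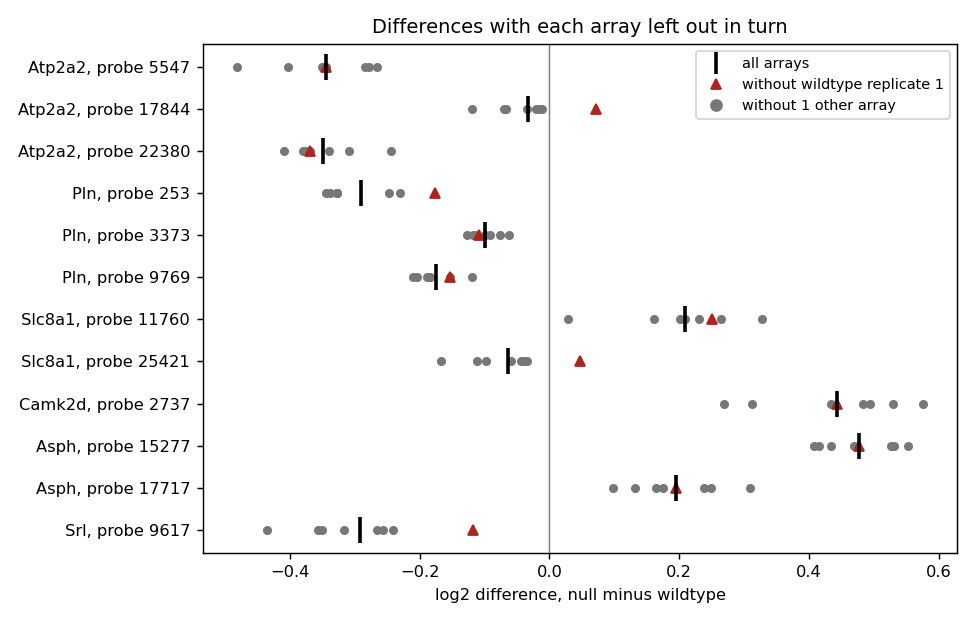
Log2 difference of null minus wildtype hearts for each tested probe with all arrays (bars) and with each array left out in turn (points); triangles mark the fit without wildtype replicate 1, which had no value for Atp2a2 probe 5547, Camk2d and Asph. The triangles of Atp2a2 probe 17844 and Slc8a1 probe 25421 lie on the other side of 0, and that of Srl moves from -0.29 to -0.12.

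Levels against the reference give how far each gene is enriched in neonatal heart over the adult tissue mixture, with the dye bias of a single orientation left in. In wildtype hearts Slc8a1 stood highest at 1.88 ± 0.21, a 3.68-fold ratio, followed by Srl at 1.73 ± 0.41 (SD, n = 4 each), and these neighbours did not differ beyond their spread. Pln followed at 0.97 ± 0.09, Camk2d at 0.65 ± 0.31 (n = 3), Atp2a2 at 0.37 ± 0.12 and Asph at 0.33 ± 0.10 (n = 3). Atp2a2 and Asph could not be told apart, and the step from Pln to Camk2d was about the SD of Camk2d. In null hearts Slc8a1 stood at 1.95 ± 0.11, Srl at 1.44 ± 0.16, Camk2d at 1.10 ± 0.29, Pln at 0.78 ± 0.09, Asph at 0.66 ± 0.20 and Atp2a2 at 0.13 ± 0.09 (SD, n = 4 each). The order thus had Camk2d before Pln and Asph before Atp2a2, changes of place whose own difference was not tested. The probes of a gene did not sit at 1 level. Those of Atp2a2 had wildtype means of 0.82, 0.19 and 0.07, the highest of them above 98.1% of all probes and the lowest above 54.5%. The Slc8a1 and Srl probes were above 99.9% of all probes.

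Ratios of genes on the same array do not move when 1 constant is subtracted from that array. They set the store pump against its inhibitor and against the surface exchanger. The log2 ratio of Pln over Atp2a2 was 0.62, 0.48, 0.72 and 0.59 in wildtype and 0.69, 0.73, 0.50 and 0.70 in null hearts. The groups overlapped, with a difference of 0.05 and an exact two-sided permutation p of 0.543. Averaged Pln and Atp2a2 had null minus wildtype differences of -0.19 and -0.24, neither past the threshold. These 2 differences were not shown to be unlike. The log2 ratio of Slc8a1 over Atp2a2 was 1.63, 1.22, 1.55 and 1.64 in wildtype and 1.83, 1.79, 1.88 and 1.79 in null hearts. All null arrays were above all wildtype arrays, and the means were 1.51 ± 0.20 and 1.82 ± 0.04 (SD, n = 4 each). The difference was 0.31, with an exact permutation p of 0.0286, the smallest that 4 against 4 arrays allow, and 0.0571 after adjustment over the 2 ratios. It was 0.13 with quantile normalization (exact permutation p = 0.371) and 0.20 with the arrays scaled to equal spread (exact permutation p = 0.257). Both genes are averages of probes that differed among themselves. Null minus wildtype was 0.21 and -0.06 on the Slc8a1 probes, and -0.35, -0.34 and -0.03 on those of Atp2a2. Ratios of single probes were not tested, so the separation holds for the averages only.

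**Figure D4:**
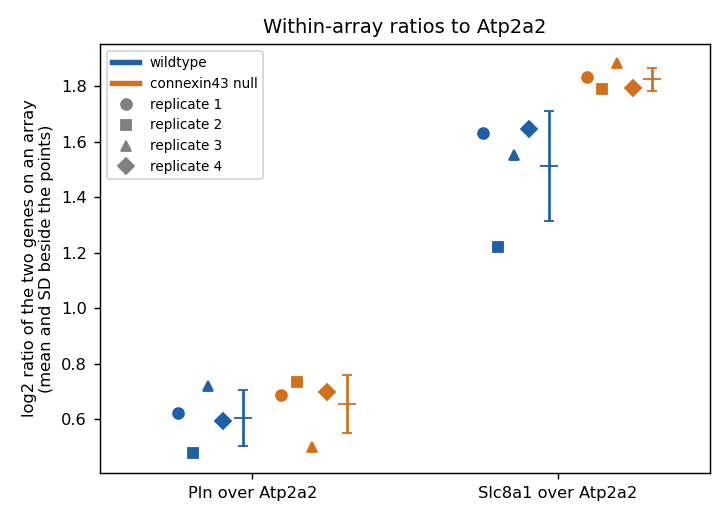
Log2 ratio of Pln and of Slc8a1 over Atp2a2 on each array (probes of a gene averaged), with group mean and SD beside the points. For Slc8a1 over Atp2a2 the null arrays lie between 1.79 and 1.88 and the wildtype arrays between 1.22 and 1.64; for Pln over Atp2a2 the groups overlap.

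Markers of heart muscle and of other cell types give the setting of these values. Heart muscle markers, over 14 probes with values on all arrays, had a mean level of 0.80 to 0.94 on wildtype and 0.85 to 1.16 on null arrays. Null replicate 1, the lowest array for averaged Atp2a2 and Pln, had the lowest heart muscle level of the null arrays. Wildtype replicate 1, the highest array for averaged Atp2a2 (0.47) and Pln (1.09), had the lowest heart muscle level of all. Skeletal muscle markers, of which 3 of 11 genes were measured on all arrays (Actn3, Mylpf and Tnnc2), had lower levels in null hearts without overlap, -0.37 to 0.01 against 0.09 to 0.31. Endothelial markers over 7 probes were higher without overlap, 0.61 to 0.75 against 0.31 to 0.60. The gap was narrow, with 0.609 on the lowest null array and 0.598 on the highest wildtype array. Lung markers over 2 probes were lower without overlap, -3.33 to -2.93 against -2.80 to -2.29. Fibroblast markers (0.75 to 1.18 in null, 0.44 to 0.95 in wildtype), smooth muscle, erythroid, macrophage and liver markers overlapped between genotypes, and thymus markers were not measured. By probe, fibroblast markers were higher in null hearts on 13 of 13 tested probes (median 0.15) and erythroid markers on 10 of 11 (median 0.19), where 42.5% of all probes were higher. Endothelial markers were higher on 8 of 11 and lower on 3 (median 0.18). Heart muscle markers were higher on 10 of 14 and lower on 4 (median 0.04). Liver markers were lower on 9 of 10 (median -0.19), where 57.5% of all probes were lower. At an unadjusted limma p under 0.05, 3 liver probes were lower and 1 was higher (all probes 5.64% and 2.33%). At the same limit 3 of 3 tested lung probes and 2 of 3 skeletal muscle probes were lower. Higher were 2 of 11 endothelial, 1 of 13 fibroblast and 1 of 14 heart muscle probes. Markers of other adult tissues were lower without overlap, -2.74 to -2.32 against -2.31 to -1.83. The gap was narrow, with -2.315 on the highest null array and -2.306 on the lowest wildtype array. This list shares Sftpc and Scgb1a1 with the lung list and Alb and Apoa1 with the liver list, so it is not a separate result. The part of these marker differences in the calcium gene values was not tested.

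The other genes of the pathway were read from 8 lists with 98 tested probes of 63 genes. None of these passed an adjusted p of 0.05 in limma; 46 probes were higher and 52 lower in null hearts (53.1% lower, all probes 57.5%), with a median of -0.02 beside -0.03 for all probes. At an unadjusted p under 0.05, 1 was higher (1.02%, all probes 2.33%) and 4 were lower (4.08%, all probes 5.64%), shares below those of all probes. The genes named next are those with the smallest p-values in each list, and further ones where they are close partners of the 9 genes. Each array was also left out in turn for the 52 probes named by p-value, a check added after seeing the data. The sign turned on 11 of them without at least 1 array. Some of the larger moves are given beside the genes, but not all.

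Genes of calcium release and storage in the reticulum had a median difference of -0.09 over 14 probes, 5 higher and 9 lower. Jph2, which encodes junctophilin-2, the tether between surface membrane and reticulum, read 1.50, 1.29, 0.67 and 1.47 in wildtype and 0.99, 0.96, 0.83 and 0.89 in null hearts. Wildtype replicate 3 lay below all null arrays and the other wildtype arrays above them, with a difference of -0.32 (SE 0.17, adjusted p = 0.651), or -0.51 without wildtype replicate 3. Itpr2, an inositol trisphosphate receptor of the reticulum, had 0.33 (SE 0.14) on a probe without overlap between genotypes but -0.10 (SE 0.12) on its other probe, or -0.02 there without wildtype replicate 1. Tmem38b, which encodes a potassium channel of the reticulum, had -0.25 and -0.16 on its 2 probes, and Hrc, which encodes a histidine-rich calcium-binding protein of the store, 0.02, 0.11 and -0.23 on its 3. Without wildtype replicate 1 the first of these turned to -0.11.

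Partners of Asph products in the release complex, are named here after their values were seen, and their differences were within their errors. Casq2, which encodes calsequestrin, the main calcium buffer of the store, had means of 1.12 in wildtype and 1.25 in null hearts, a difference of 0.13 (SE 0.15). Trdn, which encodes triadin, had 1.07 and 1.00, a difference of -0.07 (SE 0.14).

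Genes of calcium uptake into the store, other than Atp2a2 and Pln, had a median of -0.08 over 5 probes, 2 higher and 3 lower. Sarcolipin, a further inhibitor of the pump that is abundant in atria, is encoded by Sln, whose 2 probes had differences of -0.11 (SE 0.29) and -0.28 (SE 0.26). Without null replicate 1 these were 0.22 and -0.07, and without wildtype replicate 1 0.03 and -0.14. Atp2a1, which encodes the pump of fast skeletal muscle, had -0.08 (SE 0.14), and Hax1, whose product binds phospholamban, 0.28 (SE 0.19) and 0.08 (SE 0.20), or 0.06 and -0.13 without wildtype replicate 4.

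Genes of calcium entry and extrusion at the surface had a median of 0.03 over 7 probes, 4 higher and 3 lower. Stim1, which encodes the reticulum sensor that opens surface channels when the store empties, read -0.19, -0.04 and -0.27 in wildtype, without a value on replicate 2, and -0.62, -0.41, -0.67 and -0.38 in null hearts. Null arrays were below all 3 wildtype arrays, with a difference of -0.35 (SE 0.13, adjusted p = 0.596). Its relative Stim2 had -0.23 (SE 0.14). Atp2b4, which encodes a calcium pump of the surface membrane, had 0.35 (SE 0.17) over 3 arrays per genotype, and Cacna1h, a T-type calcium channel, 0.16 (SE 0.13).

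Calmodulin and the enzymes it drives had a median of -0.06 over 25 probes, 11 higher and 14 lower. At an unadjusted limma p under 0.05, 3 of the 25 were lower (12%, all probes 5.64%) and 0 higher (all probes 2.33%). All null arrays lay below all wildtype arrays for 3 of the 25 (all probes 5.38%). Counts this small describe these probes only. Camk4, which encodes calmodulin-dependent kinase IV, had -0.54 (SE 0.18), but its groups overlapped. Wildtype replicate 4 (-0.49) lay inside the range of the null arrays (-0.79 to -0.42), and wildtype replicate 3 (-0.31) was near it. Camkk2, which encodes a kinase upstream of it, had -0.40 (SE 0.18), or -0.27 without wildtype replicate 1. Nfatc3, a transcription factor activated by calcineurin, had -0.56 (SE 0.25) on a probe that read 1.29 on wildtype replicate 1, 0.18 and 0.13 on the other 2 wildtype arrays with a value and -0.17 to 0.10 on null arrays. Without wildtype replicate 1 it had -0.18, and its other probe moved from 0.01 to -0.09. That other probe had -0.14 without null replicate 1. Ppp3ca, which encodes the catalytic alpha subunit of calcineurin, was lower on 5 of 5 probes, by -0.14 to -0.37; the -0.37 became -0.13 without null replicate 2. Camk2g, the gamma relative of Camk2d, was higher on 5 of 5 probes but by less, 0.01 to 0.19, and like Ppp3ca it had no probe past the threshold. Calm3, which encodes the same calmodulin protein as Calm2, had -0.06 (SE 0.15).

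The arm of protein kinase A and the phosphatases that act on phospholamban had a median of 0.05 over 21 probes. Prkar2b, a regulatory subunit of the kinase, had -0.34 (SE 0.16) over 3 null arrays, or -0.21 without wildtype replicate 3, and Pde3a, a phosphodiesterase that breaks down cyclic AMP, 0.23 (SE 0.16), or 0.11 without null replicate 3. Phosphatase genes were divided, with Ppp1cb at -0.11 and -0.20 on its 2 probes and Ppp1ca at 0.18, -0.03 and -0.03 on its 3. Calcium-binding proteins of the reticulum lumen had a median of 0.04 over 14 probes. Among them Calr, which encodes calreticulin, a calcium buffer of the fetal heart, had 0.39 (SE 0.20), with wildtype replicate 1 at -1.25 and all null arrays between -0.33 and -0.20; without that array it had 0.19. Calu had 0.24 and 0.08 on its probes, and the latter turned to -0.05 without wildtype replicate 1. Sdf4 had -0.25 and -0.12, the former resting on wildtype replicate 2 (0.58) and falling to -0.05 without it. Rcn1 had 0.23, -0.01 and -0.16.

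Genes of mitochondrial calcium had a median of -0.01 over 7 probes, with Letm1, which encodes an ion exchanger of the inner membrane, at -0.44 (SE 0.23), where wildtype replicate 3 read 1.00 and every other array between -0.36 and 0.12, and at -0.18 without that array. Micu2, which encodes a gatekeeper of the calcium uniporter, had -0.08, -0.13 and 0.03 on its 3 probes, and the channel genes Vdac1 and Vdac2 had 0.06 and, for Vdac2, 0.06 and -0.01. Both values of 0.06 turned to -0.02 without wildtype replicate 1. The S100 family, small calcium-binding proteins related to S100a1, had a median of -0.19 over 5 probes. It included S100a9 at -0.43 (SE 0.20), S100a6 at -0.26 (SE 0.14), S100a8 at -0.19 (SE 0.21), which was -0.02 without wildtype replicate 1, and S100a11 at 0.17 (SE 0.14), and S100a8 and S100a9 are genes of neutrophils.

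**Figure D5:**
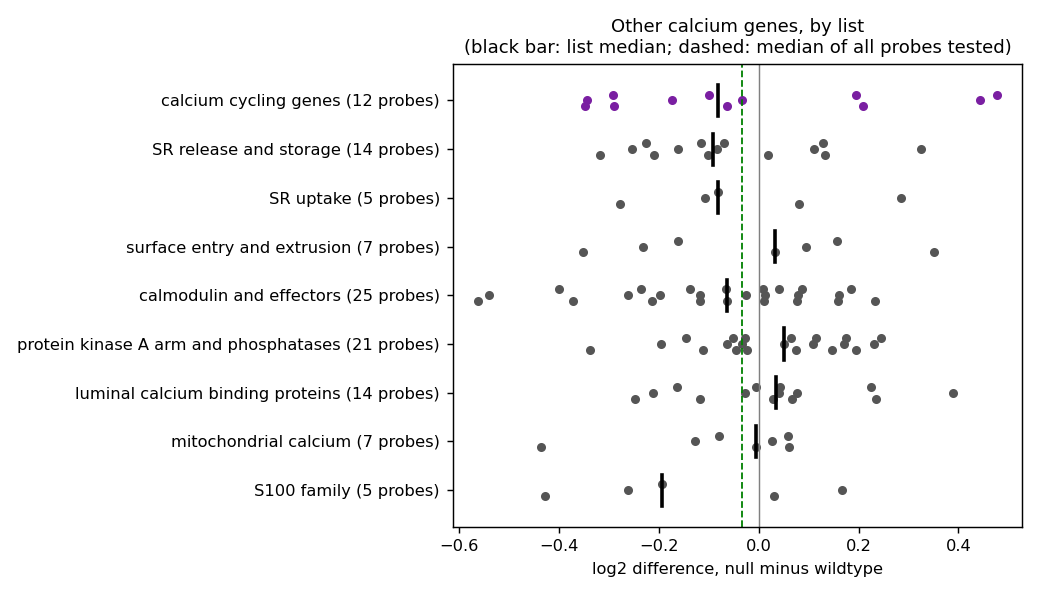
Log2 difference of null minus wildtype hearts for each tested probe of the calcium cycling genes and of the 8 lists of other calcium genes; SR is sarcoplasmic reticulum, black bars are medians and the dashed line is the median of all probes. List medians run from -0.19 (S100 family) to 0.05 (protein kinase A arm and phosphatases).

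The genes whose probes followed Pln probe 253 most closely over the 8 arrays were Ephx2, Cyth2 and Map2k2, with Pearson r of 0.977, 0.971 and 0.970 as a description. For Atp2a2 probe 17844 they were 2610024B07Rik, Pknox1 and Tcof1, with 0.972, 0.962 and 0.954. Among 10320 probes measured on all arrays the best partner of a probe had a median r of 0.974. The closest partners here, at 0.977 for Pln and 0.972 for Atp2a2, were near that median, so such values are usual for a probe on these arrays. Between probes of 1 gene, over the same 8 arrays, r was 0.79, 0.34 and 0.13 for Pln, -0.07 for Atp2a2 probes 17844 and 22380 and -0.15 for Slc8a1. Over 6 arrays Atp2a2 probe 5547 had -0.24 with probe 17844 and 0.69 with probe 22380, and the Asph probes had 0.63 over 7. Each of these is a fixed pair, while a best partner is the highest r among many probes, so the 2 kinds of r cannot be compared.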

How the data were processed

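The authors deposited 1 log2 ratio of the 2 dyes for each spot. Scanner, background correction, spot filter and scaling: not given in the sources used here. No label names the base, so it was read from the numbers: within 48 blocks of 598 rows, 8347 of 31305626 pairs of spots differed by the base 2 log of a ratio of integers no larger than 120 (tolerance 1.5e-09), against 269 for base e and 863 for base 10. Each array was centred on its median. The annotation gives 18511 of 28704 probes 1 symbol, 937 several and 9256 none, and 18267 of the first matched the RefSeq table (GRCm38.p6) by gene number.

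Null minus wildtype was fitted per probe with lmFit and eBayes in limma 3.58.1 (R 4.3.3), on 16308 probes measured on 3 or more arrays per genotype, with Benjamini-Hochberg adjustment over all of them and a threshold of 0.05. Ratios between genes used exact permutation; that of Ryr2 over Atp2a2 could not be run, as Ryr2 had no probe. Gene averages come from a fit of probe and array effects. Tables were made with pandas 2.3.3 and numpy 2.4.6 under Python 3.11.15, and figures with matplotlib 3.10.9. On simulated data built on the 16308 probes of the null against wildtype comparison, 15% of log2 changes of 0.5 and 94.6% of changes of 1 were recovered. That simulation planted changes of both sizes together, with independent normal noise and no poor array, so these shares hold for that setting only. In the real data Gja1, at -0.95, had a limma adjusted p of 0.417. The number of arrays limits the precision, and a p-value here reflects how far pools of one genotype differ.

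The 9 genes, the lists and the tests were chosen with earlier results of these data known. Genes outside the 9 are named by a rule, up to 4 per list by smallest p-value and 3 by likeness to Atp2a2 and to Pln; Casq2, Trdn, Camk2g and Calm3 were added after their values were seen. Alternatives were other centring and scaling, other limits on missing values, other eBayes settings, array weights, averaged probes, each array left out and the replicate number as a block. Both genotypes are numbered 1 to 4 in the labels, which tie no number to a litter, batch or day.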

Additional observations from a re-analysis of the deposited data

Results flagged for a closer look

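Pln probe 253 read 1.33 on wildtype replicate 1, while the other 3 wildtype arrays lay between 0.875 and 0.877. The gap was 0.996 of the range of the group, above Dixon's 95% critical value for 4 samples. Chance sets off this limit in about 1 of 20 groups, and 25 groups of calcium cycling values and of Gja1 were looked at. The same array had the highest value for 5 of the 8 probes measured on all arrays, among them Srl, and the fewest spots with a value.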

How the results depend on the processing

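No probe passed an adjusted p of 0.05 under any alternative run, and none at 0.10. Counts at an unadjusted p under 0.05 ranged from 771 with values required on all 4 arrays of each genotype, where 10320 probes were tested, to 1766 without centring, where 43 were higher and 1723 lower against 380 and 920. The sign turned for Atp2a2 probe 17844 with quantile normalization (0.0045), array weights (0.012) and without wildtype replicate 1, and for Slc8a1 probe 25421 with its probes averaged (0.073) and without wildtype replicate 1. Leaving out each array gave -0.12 to 0.072 for the former and -0.17 to 0.046 for the latter. The other 10 calcium cycling probes and Gja1 kept their sign under every alternative that gave a value. The cause was not tested. With an array left out, Gja1 had -1.04 to -0.83, the ratio of Slc8a1 over Atp2a2 0.22 to 0.36 and that of Pln over Atp2a2 0.0090 to 0.10. With the replicate block 965 probes had an unadjusted p under 0.05, 0 passed and Gja1 had -0.95; arrays of the same number did not deviate together (r of -0.24, -0.02, -0.24 and -0.0049), and with this pairing, added for the ratios after seeing the data, Slc8a1 over Atp2a2 had an exact sign-flip p of 0.125, the smallest that 4 pairs allow. Values on all 4 arrays of each genotype left out Atp2a2 probe 5547, Asph and Camk2d.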

Other observations

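Sln stood apart by array rather than by genotype. Its probes 234 and 15136 read -0.61 and 0.07 on null replicate 1 and 0.06 and 0.28 on wildtype replicate 4, the lowest values of each genotype, against at least 0.44 and 0.63 on the other 6 arrays. Myl7, which encodes the atrial myosin light chain, was also lowest within each genotype on these arrays, at 0.75 and 1.08, and Nppa, which encodes the atrial natriuretic peptide, read 0.63 on null replicate 1 but 1.16 on wildtype replicate 4 and was lowest on wildtype replicate 2 (0.10). Pln probe 9769 was lowest on null replicate 1 (0.82) and level with the highest on wildtype replicate 4 (1.23). The other Pln probes were divided on null replicate 1, where probe 253 was lowest (0.52) and probe 3373 had its highest null value (0.74). These arrays and genes were picked after their values were seen, and how much atrial tissue each pool held was not measured.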
